A study of Homo sapiens with 8 samples.

Results

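The 8 genes described here encode secreted proteins that cells release under stress: GDF15, FGF21, VEGFA, VEGFB, ADM, ADM2, STC1 and STC2. They were chosen by symbol, and each matched 1 of the 58787 gene rows of the deposited count table. The table holds 8 RNA sequencing libraries of IMR32, an established human neuroblastoma line with amplified MYCN, labelled as neuroblasts of WT genotype. In 4 libraries the cells had received CR31B at its IC50 and in the other 4 the vehicle, 0.1% DMSO, for 6 h. CR31B is a rocaglate, a class of compounds that clamp the RNA helicase eIF4A onto mRNA and so block translation initiation. IMR32 is a single line in culture, so the libraries are replicates of 1 cell line and of no tissue. Libraries numbered 1 were sequenced paired-end and those numbered 2 to 4 single-end, and same-numbered libraries are called pairs below. The series describes the replicates as biological, and the p-values measure the spread between these libraries only.

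Secreted stress factors are commonly controlled at the level of transcription. ATF4, the transcription factor of the integrated stress response, is known to act on GDF15, FGF21, VEGFA, ADM2 and STC2, and the hypoxia factor HIF1 on VEGFA, ADM and STC1. Each protein then acts through receptors on the same or other cells: GDF15 through GFRAL with RET, FGF21 through KLB with an FGF receptor, the VEGF proteins through FLT1, KDR and the neuropilins, and ADM and ADM2 through CALCRL with a RAMP protein. STC1 and STC2 are glycoprotein hormones known as inhibitors of the protease PAPPA, and the mRNA says nothing of how much of any of these proteins was made or released.

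Library totals ran from 43687828 to 64715535 counts. Pair 1 stood apart from the other libraries: on the first principal component, which held 51.8% of the variance, the library labelled CR31B replicate 1 lay at -26.4 with DMSO replicates 2 to 4 (-29.4 to -25.8), and the library labelled DMSO replicate 1 lay at 32 with CR31B replicates 2 to 4 (19 to 29). Pair 1 had the reverse sign for 6822 (98.9%) of the 6901 genes that passed the test in pairs 2 to 4. Pair 1 also differs in sequencing layout, and its labels were kept as given. The members are therefore shown for all 8 libraries as labelled, for pairs 2 to 4, and for pair 1 alone. Pair 1 has 1 library per treatment and no replicate check. Genes of the other lists are given for pairs 2 to 4, with pair 1 where stated. All 13 neuroblast markers were at or above 1 CPM (counts relative to the TMM-normalised library size). Their summed level ran from 5930 to 7550 CPM in the CR31B libraries and from 5640 to 7410 CPM in the DMSO libraries. The sum hides differences by treatment in pairs 2 to 4. GATA3 (804 to 932 against 240 to 275 CPM) and HAND2 (1240 to 1390 against 661 to 695 CPM) were higher in CR31B than in DMSO libraries. DBH (94.7 to 179 against 228 to 348 CPM) and STMN2 (21.0 to 23.0 against 34.1 to 41.3 CPM) were lower. Their part in the results was not tested. Markers of other cell types had lower sums, though TH, at 1.77 to 3.03 CPM, lay below COL1A1. Of 10 mesenchymal markers 3 were at or above 1 CPM (COL1A1, THY1 and PDGFRB) and PRRX1 and TWIST2 were at 0, with sums of 63.9 to 87.6 CPM in CR31B and 65.7 to 73.0 CPM in DMSO libraries. Of 8 endothelial markers 2 reached 1 CPM (EGFL7 and CDH5) and CLDN5 was at 0, with sums of 7.71 to 10.3 and 7.52 to 10.4 CPM. CDH5 differed by treatment in pairs 2 to 4, at 1.24 to 1.5 CPM in CR31B and 2.04 to 2.53 CPM in DMSO libraries, and its part in the results was not tested. Of 8 blood and 7 hepatocyte markers 0 reached 1 CPM, with CD68, CD3E, TYROBP, APOB, TTR, SERPINA1 and FGB at 0 in every library.

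Promoter sequence was taken for the members from RefSeq (GRCh38.p14), as the 250 bases before the RefSeq start of the gene, to show where letters known from stress-responsive promoters lie. Entries matched 6 of the 8 members; VEGFA and STC1 had none. Part of a window can be annotated as exon in GENCODE, counted here over the exons of any gene on either strand. This held for 250 of the 250 bases for ADM and STC2, 241 for GDF15, 101 for FGF21, 65 for VEGFB and 0 for ADM2. The RefSeq start can lie inside the GENCODE gene whose coordinates are given below, but not for FGF21 and ADM2. The FGF21 window ends at 48755523, before that gene begins at 48755559, so its exon bases belong to another gene. Some of those of VEGFB also lie before that gene begins. Searched on both strands was TGATGNAA, the composite element read by C/EBP and ATF4 dimers. The next motif was TGACGT, known from cyclic AMP response elements. The third motif was ACGTG, a form of the core of a hypoxia response element, and the fourth was TATAAA, the box that places the start of transcription. The form GCGTG of that core was not searched. It is present in the windows of ADM, ADM2, VEGFB and STC2, and its share over all promoters was not counted. None of these motifs contains another, though TGACGT and ACGTG can share letters. Of 35116 promoters of the same length, 3.14% hold the first, 7.1% the second, 18.5% the third and 10.7% the fourth. The 3 windows below are shown because they hold the only matches to the 4 motifs searched among the 6 members. The capitals mark the match, which in FGF21 lies on the reverse strand, 54 to 47 bases before the start (chr19:48755459-48755488, plus strand). In GDF15 it lies 29 to 24 bases before the start (chr19:18386117-18386146, plus strand), and in ADM 27 to 22 bases before it (chr11:10305034-10305063, plus strand).
FGF21: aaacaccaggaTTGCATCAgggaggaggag
GDF15: aagtccggggacTATAAAggccggtccggc
ADM: cacccgtgcgctTATAAAgcacaggaacca
The ADM2 promoter is shown whole because ADM2 is 1 of the 4 members that changed in the single-end libraries, and its window held none of the 4 motifs. It lies at chr22:50481293-50481542 on the plus strand, and 78.8% of its bases are G or C.
ADM2: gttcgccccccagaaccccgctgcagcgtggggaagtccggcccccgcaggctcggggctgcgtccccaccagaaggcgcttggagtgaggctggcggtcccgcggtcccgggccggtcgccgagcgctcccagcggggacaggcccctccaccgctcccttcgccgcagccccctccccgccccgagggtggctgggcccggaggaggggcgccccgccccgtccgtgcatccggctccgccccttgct
The windows of VEGFB and STC2 held none of the 4 either. A match is only a run of letters, and no binding was measured.

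With all 8 libraries compared as labelled, none of the members passed the test. The fit with edgeR's quasi-likelihood test called 0 of the 7 members tested at an adjusted p of 0.05 (Benjamini-Hochberg), where the share called over all 16518 genes was 0.0%. At an unadjusted p under 0.05 the same fit had 205 genes, DESeq2 had 263 and limma voom 219, and each of these tools also called 0 genes after adjustment. The groups overlapped for all 8 members, while 0.66% of all genes had groups that did not. Within pairs 2 to 4 the picture was different. VEGFA, ADM2 and STC2 were higher in the CR31B libraries and STC1 was lower, 4 of 7 members tested, beside 41.3% of all 16696 genes called (23.8% higher, 17.6% lower). VEGFB, ADM and GDF15 did not pass, and FGF21 was too low to judge. The median log2 fold change of the 7 members was 0.02 beside -0.0070 over all genes. The same 4 members had groups that did not overlap, as did 52.1% of all genes in these 6 libraries. Both shares lie so high in this comparison that a call by itself marks no member out, and sizes are given below. A change of at least 2-fold that passed the test was found for 2.68% of genes, VEGFA, STC1 and STC2 among them. STC2 passed the filter on low counts only through the libraries in which it was high. A large difference was thus a condition of its being counted here, and its call, separation and size add no support.

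**Figure D1:**
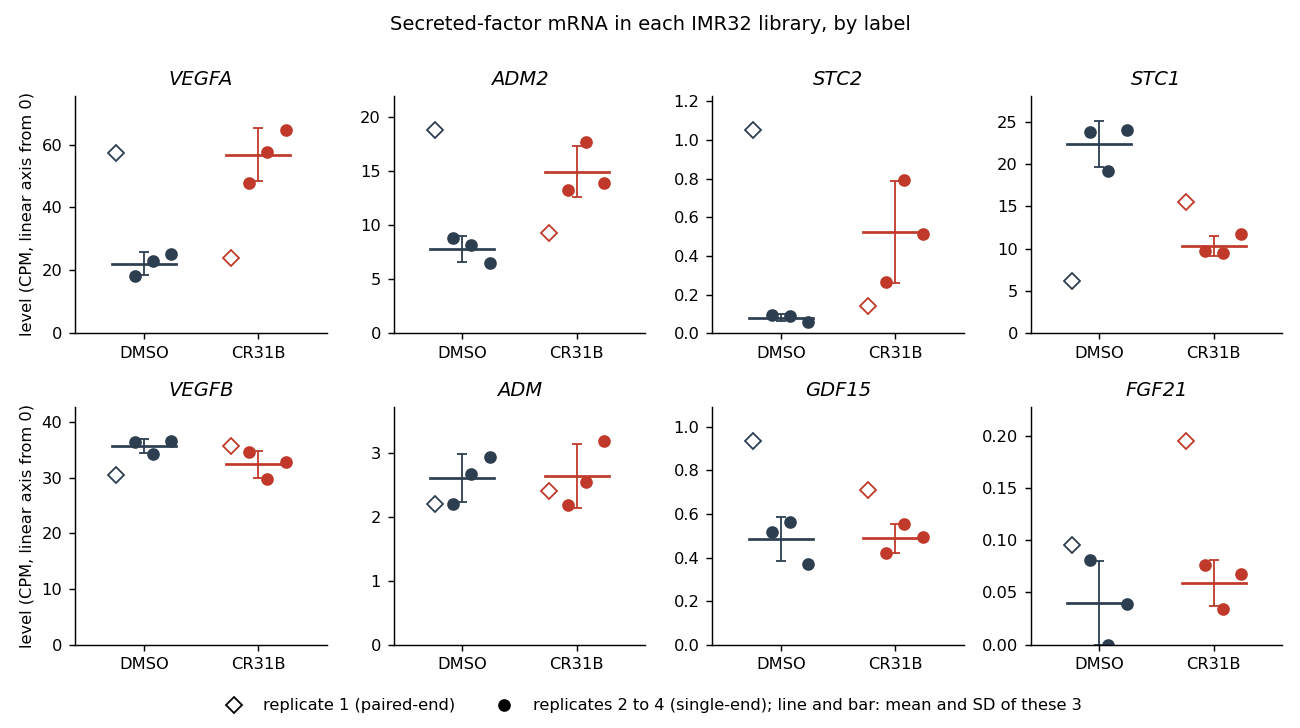
CPM of each of the 8 genes (linear axes from 0) in the 4 DMSO and 4 CR31B libraries; filled circles are single-end libraries, open diamonds the paired-end libraries labelled replicate 1, and lines with bars the mean and SD of the 3 single-end libraries. The circles of VEGFA, ADM2, STC1 and STC2 separate by treatment, and the diamonds of these 4 genes are in the reverse order.

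VEGFA, the main growth factor for blood vessels, was measured at 47.8, 57.8 and 64.6 CPM in CR31B replicates 2 to 4 and at 18.1, 23.0 and 25.3 CPM in DMSO replicates 2 to 4. Every CR31B library of these pairs lay above every DMSO library. The means were 56.7 ± 8.45 and 22.1 ± 3.66 CPM (SD, n = 3), a 2.57-fold difference, with a log2 fold change of 1.36 ± 0.13 (SE; 95% interval 1.07 to 1.65; edgeR adjusted p = 2.17e-05). The pairs differed by 1.40, 1.33 and 1.35 on the log2 scale. In pair 1 the order was the reverse, with 24.0 CPM in the library labelled CR31B and 57.4 CPM in the library labelled DMSO, a log2 difference of -1.26. The fit of all 8 libraries gave 0.76 ± 0.43 (edgeR adjusted p = 0.707). VEGFA (ENSG00000112715) lies on the plus strand of chromosome 6, and 1.3% of its exonic bases are shared with a gene on the other strand, AL136131.3.

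VEGFB, a relative of VEGFA that binds FLT1 and NRP1 but not KDR, stood at 34.6, 29.9 and 32.8 CPM in CR31B replicates 2 to 4 and at 36.4, 34.3 and 36.6 CPM in the DMSO libraries. These values overlap. The log2 fold change was -0.14 ± 0.067 (95% interval -0.29 to 0.0069; edgeR adjusted p = 0.117). With the replicate number as a block the estimate was -0.14 and passed the test (edgeR adjusted p = 0.0329), so that 5 of 7 members were called, in a fit that called 51.1% of all genes. With upper quartile scaling it was -0.24 (adjusted p = 0.01) and with total counts -0.22 (adjusted p = 0.0145), while with GC and length offsets it was -0.027 (adjusted p = 0.75). Pair 1 differed by 0.22, with 35.7 CPM in the library labelled CR31B and 30.6 CPM in that labelled DMSO. All 8 libraries as labelled gave -0.0525 ± 0.0923 (edgeR adjusted p = 0.819). VEGFB (ENSG00000173511) lies at chromosome 11, 64234538 to 64238793, plus strand.

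The vasodilator peptides ADM, adrenomedullin, and ADM2, also called intermedin, share receptors. ADM2 reached 13.3, 17.7 and 13.9 CPM in CR31B replicates 2 to 4 against 8.78, 8.17 and 6.48 CPM in DMSO replicates 2 to 4. The lowest CR31B library was above the highest DMSO library. Means were 15.0 ± 2.38 and 7.81 ± 1.19 CPM (SD, n = 3), a 1.91-fold difference with a log2 fold change of 0.94 ± 0.14 (95% interval 0.63 to 1.24; edgeR adjusted p = 0.000362). The 3 pairs differed by 0.60, 1.11 and 1.10 on the log2 scale, so pair 2 showed the smallest difference. Pair 1 had 9.30 CPM in the library labelled CR31B and 18.8 CPM in that labelled DMSO, a log2 difference of -1.01, and all 8 libraries together gave 0.47 ± 0.33 (edgeR adjusted p = 0.707). ADM2 (ENSG00000128165) lies at chromosome 22, 50481556 to 50486440, plus strand.

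ADM was present at a lower level, with 2.19, 2.54 and 3.18 CPM in CR31B replicates 2 to 4 and 2.20, 2.67 and 2.94 CPM in DMSO replicates 2 to 4. The 2 groups covered almost the same range. The log2 fold change was 0.02 ± 0.17 (edgeR adjusted p = 0.943), and its 95% interval, -0.36 to 0.40, leaves out a difference of the size found for ADM2. Pair 1 had 2.41 and 2.20 CPM in the libraries labelled CR31B and DMSO, a log2 difference of 0.13. All 8 libraries as labelled gave 0.0448 ± 0.158 (edgeR adjusted p = 0.916). Pooled over pairs 2 to 4, 404 CR31B counts stood against 467 DMSO counts, a ratio of 1.01 after scaling (exact 95% interval 0.881 to 1.15, counting error only). ADM (ENSG00000148926) lies at chromosome 11, 10304680 to 10307397, plus strand.

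The stanniocalcins moved in opposite directions. STC1 was at 9.72, 9.51 and 11.7 CPM in CR31B replicates 2 to 4 and at 23.8, 19.2 and 24.0 CPM in DMSO replicates 2 to 4. No CR31B library reached the lowest DMSO library. Means were 10.3 ± 1.18 and 22.3 ± 2.73 CPM (SD, n = 3), so STC1 was 2.17-fold lower, with a log2 fold change of -1.12 ± 0.11 (95% interval -1.36 to -0.87; edgeR adjusted p = 2.87e-05). Pairs 2 to 4 differed by -1.29, -1.01 and -1.04. The library labelled CR31B in pair 1 had 15.5 CPM and that labelled DMSO 6.20 CPM, a log2 difference of 1.31. Over all 8 libraries as labelled the estimate was -0.57 ± 0.39 (edgeR adjusted p = 0.707). STC1 (ENSG00000159167) lies at chromosome 8, 23841915 to 23854807, minus strand.

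STC2 was a rare transcript with the largest fold difference of the 7 members tested. CR31B replicates 2 to 4 had 14, 46 and 23 counts (0.267, 0.794 and 0.515 CPM), and DMSO replicates 2 to 4 had 6, 6 and 3 counts (0.0970, 0.0889 and 0.0584 CPM). The groups did not overlap, and CR31B replicate 2 was the lowest of its group. The log2 fold change was 2.65 ± 0.48 (95% interval 1.59 to 3.71; 6.27-fold; edgeR adjusted p = 0.00134). From the pooled counts, 83 against 15, the ratio was 6.45 (exact 95% interval 3.69 to 12.0, counting error only). STC2 passed the filter on low counts through the libraries in which it was high, so that a large difference was a condition of its being tested. In pair 1 there were 8 counts in the library labelled CR31B and 44 in that labelled DMSO, a ratio of 0.134 (exact 95% interval 0.0547 to 0.289). All 8 libraries gave a log2 fold change of 0.97 ± 0.92 (edgeR adjusted p = 0.709). STC2 (ENSG00000113739) lies at chromosome 5, 173314713 to 173329503, minus strand.

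GDF15, a member of the TGF-beta superfamily that acts on the brainstem to reduce appetite, was near the limit of what these libraries can measure. CR31B replicates 2 to 4 had 22, 32 and 22 counts (0.419, 0.552 and 0.493 CPM), and DMSO replicates 2 to 4 had 32, 38 and 19 counts (0.517, 0.563 and 0.370 CPM). The ranges overlap almost fully. The log2 fold change was 0.0035 ± 0.25 (edgeR adjusted p = 0.993), and the 95% interval of -0.55 to 0.56 leaves out a 2-fold change in either direction but not smaller ones. Its sign turned under several scalings, for example to -0.09 with upper quartile scaling. In pair 1 the library labelled CR31B had 0.709 CPM and that labelled DMSO 0.934 CPM, a log2 difference of -0.39 and a count ratio of 0.759 (exact 95% interval 0.476 to 1.21). All 8 libraries as labelled gave -0.106 ± 0.208 (edgeR adjusted p = 0.837). GDF15 (ENSG00000130513) lies at chromosome 19, 18374731 to 18389176, plus strand.

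FGF21, the fasting hormone made mainly by liver, was the 1 member too low to judge. It had 11, 4, 2 and 3 counts in CR31B replicates 1 to 4 and 4, 5, 0 and 2 counts in DMSO replicates 1 to 4, and it did not pass the filter on low counts. Median counts were 3.5 and 3. The ratio of pooled counts in pairs 2 to 4, 9 against 7, was 1.5 with an exact 95% interval of 0.497 to 4.74 (counting error only). That interval leaves out neither a 2-fold rise nor a 2-fold fall, though the fall lies at its edge. Pair 1 gave 2.03 (0.603 to 8.76). FGF21 (ENSG00000105550) lies at chromosome 19, 48755559 to 48758333, plus strand.

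Per length, VEGFB was the most abundant of the 8 transcripts in the DMSO libraries of pairs 2 to 4, with a mean of 23.2 CPM per kb of exon. STC1 followed at 5.38, ADM2 at 1.83, VEGFA at 1.53, ADM at 0.957, GDF15 at 0.232, FGF21 at 0.0304 and STC2 at 0.0133 CPM per kb. Single libraries of ADM2 (1.52 to 2.05) and VEGFA (1.25 to 1.75) overlapped in this order, as did FGF21 and STC2. In the CR31B libraries the order was VEGFB (21.0), VEGFA (3.93), ADM2 (3.5), STC1 (2.48), ADM (0.970), GDF15 (0.234), STC2 (0.0857) and FGF21 (0.0451). VEGFA and ADM2 again overlapped, as did STC2 and FGF21, and STC1 lay below both in every CR31B library of these pairs. Exon lengths join all annotated transcripts of a gene, so the level per length of VEGFA, with 14431 exonic bases, is the one most lowered by this scale.

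**Figure D2:**
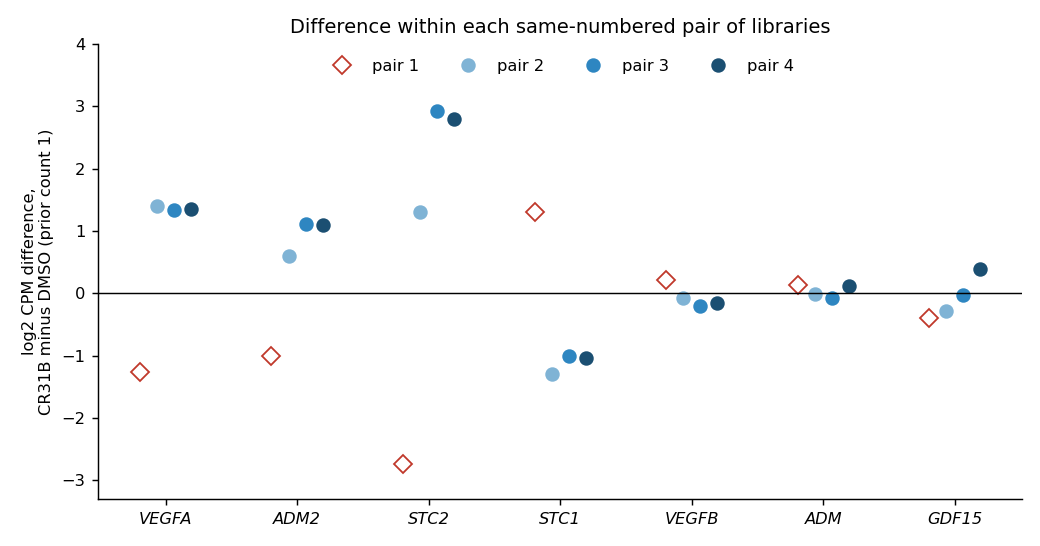
Difference in log2 CPM (CR31B minus DMSO, prior count 1) in each same-numbered pair for the 7 members tested; filled circles are pairs 2 to 4 and open diamonds pair 1. For VEGFA, ADM2 and STC2 the circles lie above 0 and the diamond below, for STC1 the reverse, and for GDF15 and ADM the circles fall on both sides of 0.

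The gap between pair 1 and the other pairs was tested as an interaction of treatment and layout, with the spread taken from the single-end libraries. It passed for VEGFA (-2.62 ± 0.26 on the log2 scale, edgeR adjusted p = 3e-05), STC1 (2.43 ± 0.24, adjusted p = 2.4e-05), ADM2 (-1.95 ± 0.27, adjusted p = 0.000275) and STC2 (-5.52 ± 0.84, adjusted p = 0.000492), which are 4 of 7 members beside 42.5% of all genes. STC2 passed the filter here too only through the libraries in which it was high. For VEGFB the gap was 0.36 ± 0.13 (edgeR adjusted p = 0.0504). GDF15 and ADM had -0.40 ± 0.46 and 0.11 ± 0.35 (adjusted p = 0.515 and 0.825). Of the 7 members, 6 had opposite signs in pair 1 and in the single-end estimate, beside 84% of all genes tested. ADM was the exception, and GDF15, counted among the 6, had an estimate of 0.0035 whose sign turned under other settings. Layout and pair number cannot be told apart here, since both paired-end libraries are pair 1.

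Ratios of 2 members within a library do not depend on how libraries are scaled. The pairs of genes were chosen after their values were seen. The ratio of VEGFA to VEGFB counts was 1.38, 1.93 and 1.97 in CR31B replicates 2 to 4 and 0.497, 0.669 and 0.690 in DMSO replicates 2 to 4. VEGFA thus gave more counts than VEGFB in each of these CR31B libraries and in none of these DMSO libraries. In pair 1 it was 0.673 in the library labelled CR31B and 1.88 in that labelled DMSO. The ratio of ADM2 to ADM was 6.08, 6.97 and 4.36 against 3.99, 3.07 and 2.21 in pairs 2 to 4, and 3.86 against 8.53 in pair 1. VEGFA to STC1 was 4.92, 6.08 and 5.54 against 0.762, 1.20 and 1.05, and 1.55 against 9.25 in pair 1. For all 3 ratios the order within pair 1 was the reverse of that in the other pairs. A ratio shows that the 2 genes changed unequally, and not which of them did.

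**Figure D3:**
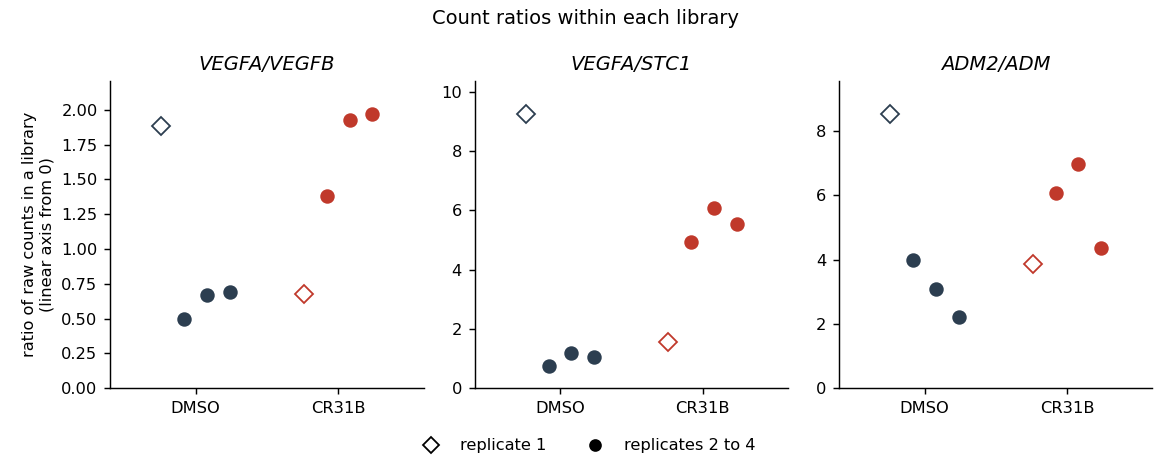
Ratios of raw counts within each library (linear axes from 0) for VEGFA to VEGFB, VEGFA to STC1 and ADM2 to ADM, by label; filled circles are single-end libraries and open diamonds the libraries labelled replicate 1. All CR31B circles lie above all DMSO circles in the 3 panels, and the diamonds are in the reverse order.

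Among the receptors and co-receptors of these ligands, the neuropilins, which bind VEGF proteins beside their main receptors, rose in the CR31B libraries of pairs 2 to 4. NRP1 was at 301 ± 35.3 against 197 ± 10.1 CPM (SD, n = 3; log2 fold change 0.61 ± 0.081; edgeR adjusted p = 0.000178), and NRP2 at 122 ± 4.12 against 79.4 ± 9.22 CPM (0.62 ± 0.077; adjusted p = 0.000127). FGFR3, an FGF receptor, was at 22.5 ± 1.82 against 17.3 ± 1.10 CPM (0.38 ± 0.081; adjusted p = 0.00367). Of the 18 receptor genes 12 could be tested, of which 4 rose, 0 fell and 8 did not pass, beside 41.3% of all genes called. Their median log2 fold change was 0.10. The count of 0 depended on the setting: 2 fell with RLE scaling, DESeq2 or limma voom, 3 rose and 3 fell with upper quartile scaling or total counts, and 6 rose and 2 fell with the replicate block. Calls over all 16696 genes also varied, with 6901 in the main fit, 6912 with RLE scaling, 6679 with DESeq2 and 6906 with limma voom. Upper quartile scaling called 7519 of them, total counts 7375 and the replicate block 8540 (51.1%). The fourth to rise, ACKR3, lost its call under upper quartile scaling and with total counts, among others. In pair 1 NRP1, NRP2 and FGFR3 differed by -0.37, -0.34 and -0.42. The receptors that give these ligands their specificity were scarce: GFRAL was at a mean of 0.0058 CPM in CR31B replicates 2 to 4 and at 0 in DMSO replicates 2 to 4, and KLB at 0 in all 6. FLT1 was at 0.018 CPM and 0, KDR at 0.249 and 0.314 CPM, and CALCRL at 0.146 and 0.0386 CPM in CR31B and DMSO. Their partners were well expressed, with RET at 14.5 ± 5.19 and 10.9 ± 2.24 CPM, FGFR1 at 78.8 ± 2.01 and 82.6 ± 2.37 CPM and RAMP2 at 37.2 ± 7.07 and 32.1 ± 4.21 CPM (SD, n = 3), none of which passed the test. With the replicate block RET passed (edgeR adjusted p = 0.0067) and so did RAMP2 (adjusted p = 0.0076).

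Relatives of the members gave a mixed picture. PGF, placental growth factor, a VEGF relative that binds FLT1, rose from 42.5 ± 9.87 to 119 ± 6.16 CPM (SD, n = 3; log2 fold change 1.49 ± 0.14; edgeR adjusted p = 1.59e-05), a 2.81-fold difference beside the 2.57-fold one of VEGFA. VEGFD, a growth factor for lymphatic vessels, was lower at 12.0 ± 2.96 against 25.0 ± 9.72 CPM (-1.06 ± 0.25; adjusted p = 0.00603). FGF19, the endocrine relative of FGF21, was at 3.10 ± 0.714 against 1.85 ± 0.421 CPM (0.75 ± 0.21; adjusted p = 0.0146), and its adjusted p was 0.056 without DMSO replicate 2. Of 10 relatives 5 could be tested, 2 rose, 1 fell and 2 did not pass, beside 41.3% of all genes called. With the replicate block, which called 51.1% of all genes, 2 relatives fell. All 3 named genes had the opposite sign in pair 1, at -1.65 for PGF, 1.10 for VEGFD and -0.43 for FGF19.

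**Figure D4:**
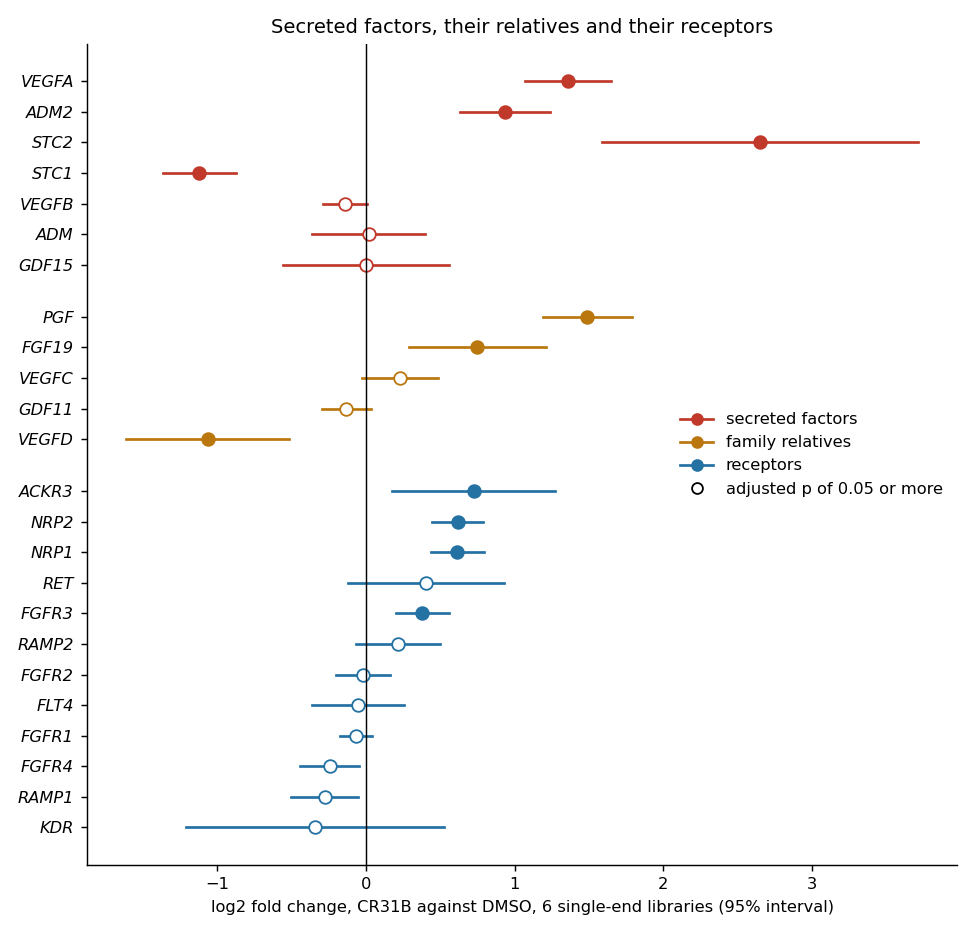
Log2 fold change (CR31B against DMSO) with 95% intervals from the edgeR fit of the 6 single-end libraries for the 7 members tested, the 5 relatives tested and the 12 receptors tested; filled points have an adjusted p under 0.05 and open points do not. STC2 has the widest interval of the members (1.59 to 3.71), and PGF at 1.49 lies beside VEGFA at 1.36.

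Of 9 genes that process or bind the members, 6 were tested, with 2 higher and 1 lower, beside 41.3% of all genes called. With the replicate block, which called 51.1% of all genes, 2 were lower. The proprotein convertases, which cut secreted precursors, split: PCSK5 rose (log2 fold change 0.72 ± 0.12; edgeR adjusted p = 0.000693), PCSK6 fell (-0.30 ± 0.066; adjusted p = 0.00472), and FURIN rose slightly (0.24 ± 0.06; adjusted p = 0.00921), a call lost under upper quartile scaling (adjusted p = 0.08) and also lost with total counts. PAM, the enzyme that amidates adrenomedullin peptides, had 46.1 CPM in both groups (log2 fold change -0.00019; adjusted p = 0.999). PAPPA, the protease that stanniocalcins inhibit, was at 0.0904 and 0.0767 CPM and could not be tested. In pair 1 PCSK5, PCSK6 and FURIN had the opposite signs, at -0.721, 0.325 and -0.152.

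Of 16 other secreted stress proteins 9 were tested, with 1 higher and 3 lower, beside 41.3% of all genes called. With the replicate block, which called 51.1% of all genes, 2 were higher. INHBE, an inhibin subunit known as an ATF4 target, rose from 6.77 ± 1.19 to 23.8 ± 4.51 CPM (SD, n = 3; log2 fold change 1.82 ± 0.16; edgeR adjusted p = 1.14e-05). MANF and CRELD2, secreted when protein folding in the endoplasmic reticulum is disturbed, were lower, MANF at 62.7 ± 5.22 against 103 ± 9.01 CPM (-0.72 ± 0.078; adjusted p = 4.99e-05) and CRELD2 at 24.1 ± 0.981 against 29.8 ± 0.925 CPM (-0.31 ± 0.061; adjusted p = 0.00244). In pair 1 INHBE, MANF and CRELD2 had the opposite signs, at -1.54, 0.813 and 0.278. The cytokines IL6, CXCL8 and CCL2 and the growth factors AREG and EREG were at 0 in all 8 libraries, which allows up to 3 counts in each.

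The regulators of the members were read from 3 lists. In the ATF4 list, 17 of 19 genes tested were higher in the CR31B libraries of pairs 2 to 4. Of the others, 1 was lower and 1 did not pass. Over all genes 23.8% were called higher and 17.6% lower. The median log2 fold change of the list was 0.87 beside -0.0070 over all genes, and its median difference in pair 1 was -0.90. ATF4 itself was at 483 ± 14.3 against 370 ± 14.5 CPM (SD, n = 3; 0.39 ± 0.052; edgeR adjusted p = 0.000203). CHAC1, which breaks down glutathione, rose by 2.99 ± 0.11, SESN2, a brake on mTORC1, by 1.76 ± 0.1, and CEBPB, a partner factor, by 1.30 ± 0.075 on the log2 scale (edgeR adjusted p = 4.34e-07, 1.11e-06 and 1.22e-06). The gene that fell was PPP1R15A, the phosphatase subunit that reverses the stress signal on eIF2 alpha (-0.47 ± 0.073; adjusted p = 0.000503). Of the members known as ATF4 targets, VEGFA and ADM2 were higher, GDF15 did not pass and FGF21 could not be tested. STC2 was also higher, but entered the test only through the libraries in which it was high.

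Of all genes 41.3% were called in pairs 2 to 4. Of 12 genes of the unfolded protein response tested, 3 were higher, 3 lower and 6 did not pass (median -0.11). More were lower under other settings: 5 with the replicate block, 6 with total counts or the 1 CPM filter, 7 with upper quartile scaling or GC and length offsets, and 8 with those offsets and the block, while 2 or 3 were higher. These settings also called more of all genes lower, where the main fit had 2933 of 16696. The block had 3854 of 16696, total counts 4194, upper quartile scaling 4509, the offsets 3347 and the offsets with the block 4325. With the 1 CPM filter 3309 of 13099 were lower. The chaperones HSPA5 (-0.93 ± 0.095; edgeR adjusted p = 3.37e-05) and PDIA4 (-0.75 ± 0.09; adjusted p = 0.000103) fell, and HERPUD1, a factor of protein degradation at the endoplasmic reticulum, rose (0.39 ± 0.055; adjusted p = 0.000274). In pair 1 HSPA5, PDIA4 and HERPUD1 had the opposite signs, at 1.01, 0.898 and -0.261. The hypoxia list had 4 higher, 6 lower and 8 not passing of 18 tested (median -0.06), beside 41.3% of all genes called. HK2, hexokinase 2, rose from 186 ± 16.7 to 330 ± 27.6 CPM (SD, n = 3; 0.82 ± 0.078; edgeR adjusted p = 2.03e-05), EGLN1, an oxygen sensor, by 0.70 ± 0.069 (adjusted p = 2.72e-05) and KDM3A, a histone demethylase, by 0.45 ± 0.062 (adjusted p = 0.000246). Among those that fell, named after their values were seen, ANKRD37 was at 1.95 ± 0.161 against 3.61 ± 0.398 CPM (-0.89 ± 0.14; adjusted p = 0.000599). NDRG1 fell by 0.84 and PFKFB4, an enzyme that regulates glycolysis, by 0.66 on the log2 scale (edgeR adjusted p = 0.00161 and 0.0016). Smaller falls were found for LDHA, a lactate dehydrogenase subunit, at -0.33 (adjusted p = 0.0122), and BNIP3, a mitophagy receptor, at -0.20 (adjusted p = 0.0432), the latter losing its call with GC and length offsets and without CR31B replicate 2 or 3 or DMSO replicate 2 or 4 (adjusted p up to 0.153). HIF1A was at 263 ± 20.4 and 240 ± 10.5 CPM (0.13 ± 0.064; adjusted p = 0.122), and passed with the replicate block (adjusted p = 0.0224). In pair 1 HK2, EGLN1 and KDM3A differed by -0.914, -0.733 and -0.414. There ANKRD37, NDRG1, PFKFB4, LDHA and BNIP3 differed by 1.3, 1.43, 0.807, 0.14 and 0.212. The hypoxia targets among the members went 3 ways in pairs 2 to 4, VEGFA higher, STC1 lower and ADM not passing. Over all 8 lists searched, 36 genes rose and 18 fell of 93 tested, beside 23.8% and 17.6% of all genes. In the 8 libraries as labelled 0 of them passed. The split of calls over all genes depended on scaling: 57.5% of called genes were higher with TMM, 40.0% with upper quartile scaling and 43.1% with total counts, and upper quartile scaling moved the median of all genes to -0.10.

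For the 5 members with a mean of at least 1 CPM, the genes with the most similar profile were sought among 10787 genes, by the root mean square difference of gene-centred log2 CPM over the 8 libraries. Nearest to VEGFA were SLC30A1 (0.0991) and POLR2A (0.107), and to STC1 CXCL12 (0.195) and PANX2 (0.225). TMEM87B (0.0889) and PRICKLE1 (0.101) were nearest to ADM2, FAM171A1 (0.0203) and KANSL3 (0.0234) to VEGFB, and KCNN2 (0.0821) and KCTD12 (0.0874) to ADM. Flat profiles such as that of VEGFB have close neighbours by this measure, and STC1 had the most distant ones of the 5.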

How the data were processed

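The authors deposited raw counts, whole numbers for 8 libraries, keyed by Ensembl gene in 1 table whose name carries the word reverse. The submitters' processing notes name FastQC 0.11.7, STAR 2.7.2b, edgeR 3.36.0, limma 3.50.3 and the build GRCh38, without roles. The counting tool, what that word refers to, the strand setting and the annotation are not given in the sources used here, so it is unknown whether strand was used, and without it reads of overlapping genes on opposite strands cannot be told apart. The labels name a small RNA kit but polyadenylated RNA. No molecular identifiers are described, so PCR duplicates count and intervals cover counting error only. Totals were 43687828 to 64715535 counts per library. Of 58787 identifiers, 58515 were in GENCODE release 29, whose gene coordinates (GRCh38) are given here. The header of CR31B replicate 4 lacks a first letter and was matched by the rest.

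The tests were two-sided edgeR 4.0.16 quasi-likelihood tests run under R 4.3.3 (glmQLFit, glmQLFTest, filterByExpr, TMM, Benjamini-Hochberg over all genes tested, threshold 0.05). The fits were all 8 libraries with layout as covariate, the 6 single-end libraries, and the interaction of treatment and layout. CPM are TMM-scaled, and a prior count of 1 entered the log2 CPM of pair differences. A member was too low to judge if it failed filterByExpr or had a median under 10 counts in both groups. DESeq2 1.42.0, limma 3.58.1 voom, other scalings and filters, GC and length offsets, a replicate block and leaving out each library were alternatives. On simulated data the single-end fit recovered 74% of genes changed by 0.5 and 100% of those changed by 1 (log2), over 16651 genes, with 5 false calls of 179. The changed genes were 100 of each size, drawn from genes with more counts than GDF15, FGF21 or STC2 had. These shares therefore do not cover those members. Far fewer genes changed there than the 6901 called in the data, and the simulated spread followed the trend over genes. No 2 replicates agreed within sampling noise (lowest mean chi-square per gene 7.16).

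Same-numbered single-end libraries deviated together weakly (r = 0.208, 0.388 and 0.157 for replicates 2, 3 and 4). Other combinations ran from -0.31 to 0.0937, the last for CR31B replicate 2 with DMSO replicate 4. Whether the replicate numbers pair the libraries was not tested. The labels state no pairing, so the replicate block rests on these values.

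The members, lists and tests were chosen with earlier results of these data known. From each list up to 3 genes were named by lowest adjusted p in the single-end fit, if past 0.05, with the sign shared by pairs 2 to 4 and an average of 1 CPM or more. Receptors, regulators and other list genes with values beside these were named after their values were seen. For each member with at least 1 CPM, 2 genes of nearest profile at 5 CPM or more were named. One list and its genes are not reported here and enter only the totals over all lists.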

Additional observations from a re-analysis of the deposited data

Results flagged for a closer look

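The DMSO libraries of STC2 had 1 library far from the others. Replicate 1 stood at 1.05 CPM against 0.0584 to 0.0970 CPM in replicates 2 to 4, a gap of 0.961 of the group's range, above Dixon's critical value for 4 samples. It was the 1 flag among 16 groups tested, and chance flags about 1 group in 20. Without that library, the layout term of the fit as labelled absorbs CR31B replicate 1. The fit then repeats the single-end comparison, with STC2 2.65 higher on the log2 scale in the CR31B libraries (edgeR adjusted p = 0.00133). This adds no support, since STC2 passed the filter only through the libraries in which it was high.

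The difference between CR31B and DMSO in pair 1 departed from that in pairs 2 to 4 for 4 members by the interaction test of edgeR: by -2.62 for VEGFA, -1.95 for ADM2, 2.43 for STC1 and -5.52 for STC2, each on the log2 scale. Of all genes 42.5% passed the same test, which STC2 entered only through the libraries in which it was high. Sequencing layout and pair 1 cannot be told apart, and the part of layout, handling or labels in this was not tested.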

How the results depend on the processing

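The single-end calls of VEGFA, ADM2, STC1 and STC2 held under every alternative that tested them, at log2 fold changes of 1.23 to 1.47, 0.80 to 1.03, -1.22 to -1.05 and 2.19 to 2.97; GDF15 and STC2 had too few counts for the 1 CPM filter. With all 8 libraries, 0 members were called under each setting except with the 6 single-end libraries only (4 members); leaving out 1 library gave 0 to 4, and 4 arose without CR31B replicate 1 and without DMSO replicate 1. Without either library of pair 1, the layout term absorbs the other. With the replicate block 5 members were called in pairs 2 to 4, VEGFB being the addition (-0.14), and no other member's call changed. The interaction of VEGFB passed under RLE, upper quartile, total counts, 1 CPM filter, DESeq2 and 3 of the leave-outs. Signs turned only where estimates lay near 0. In the 8 libraries, GDF15 was 0.0035 with the single-end libraries only and -0.21 to 0.0045 leaving out a library; VEGFB was 0.0078 with GC and length offsets, with or without the block, and -0.14 to 0.0034 leaving out a library; ADM ran from -0.0587 to 0.134 leaving out a library. In pairs 2 to 4, GDF15 was -0.0078 with RLE, -0.0904 with upper quartile, -0.0733 with total counts, -0.0089 without a filter, -0.0023 with DESeq2 and -0.13 to 0.12 leaving out a library. ADM was -0.0779 with upper quartile, -0.0607 with total counts, -0.0109 with the 1 CPM filter and -0.13 to 0.14 leaving out a library. Its interaction ran from -0.0075 to 0.26 leaving out a library and reached 0.32 with upper quartile scaling. The cause was not tested. Depth limits GDF15, FGF21 and STC2.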
